A study of Homo sapiens with 6 samples.

Results

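The 40 genes described here encode enzymes of nucleotide synthesis and one-carbon metabolism, among 24462 gene symbols in the count files. They are chosen by name for their place in these pathways, by a rule that uses no measured value, though earlier results of these data were known when the list was drawn up. In the files each of the 40 symbols has 1 entry. Levels are given as CPM, the reads on a gene scaled to a common library total of 1000000. The libraries come from HCEC 1CT, immortalized human colonic epithelial cells with an hTERT manipulation, and from 1CT-A, the version of these cells depleted of wild type APC, and there are 3 libraries of each cell line. By the sample labels their genotypes are WT and APC KD, no treatment is given, and cells of both genotypes grow in the same medium. It is DMEM and M199 with 20 ng/ml epidermal growth factor, 1 μg/ml hydrocortisone, 10 μg/ml insulin, 5 nM sodium selenite, 2 μg/ml transferrin and 2% FBS in the units of the labels, while the methods of the study give hydrocortisone, insulin and transferrin in mg/ml. The sources used here do not name the construct behind the depletion in 1CT-A, nor whether 1CT-A is a single clone, so the depletion of APC and any other difference between the cell lines cannot be told apart. Nothing in the labels says that the 3 libraries come from separate cultures, so the p values measure only the spread between these libraries, which may be technical.

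A growing cell makes pyrimidine and purine rings from amino acids, carbon dioxide and folate-bound carbon units, and it recycles free bases and nucleosides in salvage reactions. Ribonucleotide reductase turns ribonucleotides into the deoxynucleotides used for DNA, and thymidylate synthase adds the methyl group that distinguishes thymine from uracil. The carbon units come mainly from serine and travel on folate in the cytosol and in mitochondria, and a separate methionine cycle supplies methyl groups for methylation. RRM2, TYMS and TK1 are known as genes that are expressed most in cells that replicate DNA.

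The count totals run from 7788679 to 8452258 in the 3 libraries of 1CT and from 11158108 to 12602988 in those of 1CT-A. APC, the depleted gene, averages 46.6 ± 2.75 CPM in 1CT and 31.9 ± 2.21 CPM in 1CT-A (SD, n = 3), with every 1CT-A library below every 1CT library (log2 fold change -0.58, standard error 0.09, adjusted p = 1.8e-04). Of 12 epithelial and intestinal markers, only KRT18 and KRT19 have enough counts to be tested, and both are lower in 1CT-A. The whole list sums to at most 17.4 CPM in a library, and KRT19 has no read in any 1CT-A library. EPCAM, CDX1, VIL1, MUC2 and CHGA have no read in any library, and CDH1 has at most 4 reads in a library. All 10 mesenchymal markers, VIM and COL1A1 among them, are well counted, and in 1CT-A 3 are called higher (COL3A1, TWIST1 and ZEB1), 5 lower (FN1, COL1A1, THY1, PDGFRB and VIM) and 2 neither (CDH2 and COL1A2). Their summed level ranges over 44940 to 52980 CPM in 1CT and 22140 to 23560 CPM for 1CT-A libraries, and most of it is FN1, with a mean of 44240 CPM in 1CT and 18130 CPM in 1CT-A. The 8 blood and endothelial markers sum to at most 2.31 CPM in a library, with CD14 as the most counted. The labelled type is epithelial, and most of its defining markers are absent or near 0 in both cell lines.

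In 1CT-A, 29 of the 40 genes are called higher and 2 are called lower, and 9 are not called. A call is an adjusted p below 0.05 by the quasi-likelihood method of edgeR. Over the 12514 genes tested, 25.0% are called higher and 26.0% are called lower. The members called higher are 72.5% and the members called lower are 5.0% of the 40, all of which have enough counts to be tested. Their median log2 fold change is 0.47 against -0.0067 over all genes tested, and 37 of the 40 log2 fold changes are above 0. For 33 members every 1CT-A library lies above every 1CT library, which is the case for 31.8% of all genes tested. The differences are of moderate size, since 13 members are called and at least 1.5-fold higher (11.5% of all genes tested), and the largest difference is that of DUT, 1.96-fold. Across the libraries of a cell line the members have a median coefficient of variation of 8.77% in 1CT and 5.27% in 1CT-A, and the highest are 25.9% for CMPK1 in 1CT and 24.9% for CTPS2 in 1CT-A.

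**Figure D1:**
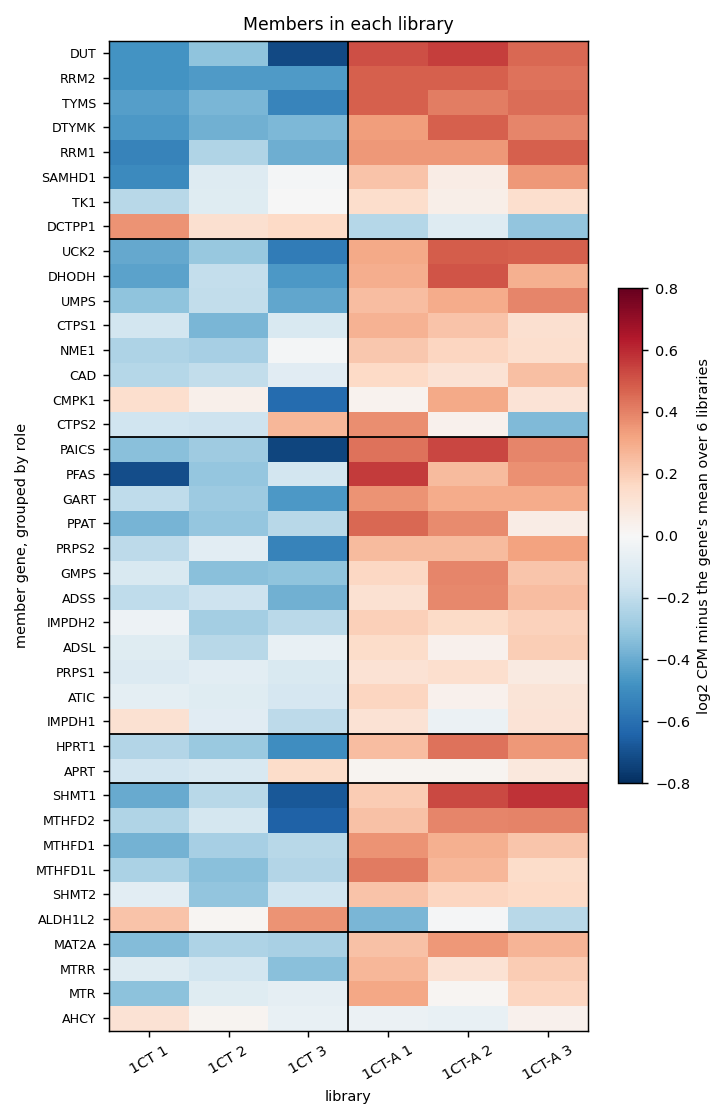
Heat map of the 40 members (rows, grouped by role and separated by lines) in the 6 libraries (columns), with colour for the log2 CPM minus the gene's mean over the libraries. The 1CT-A columns are above the mean for most rows, and DCTPP1 and ALDH1L2 show the opposite order.

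Genes of DNA replication are higher as well. From the Seurat list, 39 S phase genes are not members and are among the gene symbols counted here. Their summed level is 1294 to 1345 CPM in the 1CT libraries and 2532 to 2545 CPM in the 1CT-A libraries. Of these 39 genes 37 are called higher and 0 lower, with a median log2 fold change of 0.83, and CASP8AP2 and BRIP1 are the genes not called. They move with the members, and their part in the members' differences was not tested. In bulk libraries such as these, a larger share of cells in S phase and more RNA per cell cannot be told apart.

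**Figure D2:**
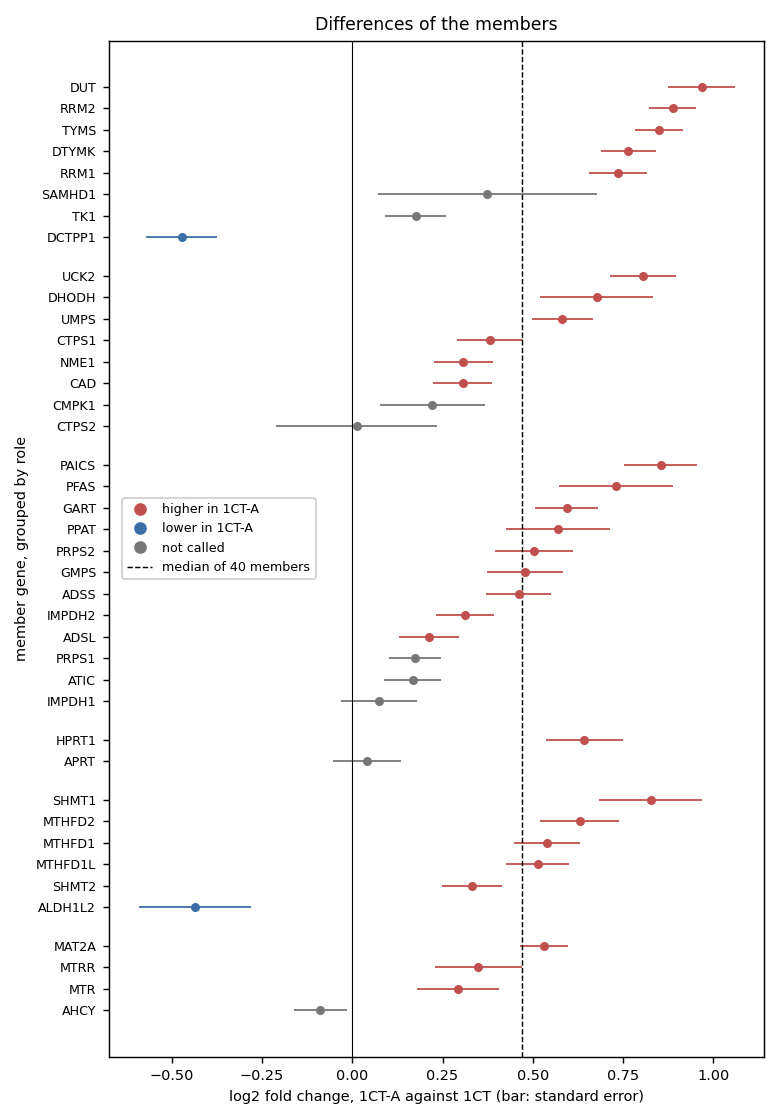
Log2 fold change of each member, 1CT-A against 1CT, with its standard error as a bar (edgeR, 3 libraries against 3), grouped by role and coloured by call. The dashed line marks the members' median of 0.47, and DCTPP1 and ALDH1L2, both called lower, and AHCY, not called, lie to the left of 0.

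RefSeq promoter windows run from 250 bases before to 50 bases after the annotated start on GRCh38.p14. They are matched by symbol for 35 members, and ADSL, IMPDH2, SHMT2, ALDH1L2 and MTRR are without a window. For each symbol only the first listed window is used, and other annotated starts were not searched. Each window is searched on both strands for the E2F-type words TTTCCCGC, TTTCGCGC, TTTGCCGC and TTTGGCGC, for the E-box CACGTG that MYC and related factors bind, and for the ATF4-type word TGATGNAA. An E2F-type word is found in 4 of the 35 windows (11.43%), those of TYMS, PRPS2, MTR and AHCY, and in 3.33% of the 27305 windows of the whole table. The E-box is found in 7 (20.0%), those of DCTPP1, DHODH, NME1, PPAT, ATIC, MTHFD1 and MTHFD1L, and in 7.43% of all windows. The ATF4-type word is found in 1 (2.86%), that of MTHFD1L, and in 3.67% of all windows. Among the 15843 windows of protein-coding genes, the closer background for these members, the shares are 4.44% for the E2F-type words, 8.88% for the E-box and 2.53% for the ATF4-type word. In these windows no match of one motif overlaps a match of another. Among the windows used for the 13 members at least 1.5-fold higher, that of TYMS holds an E2F-type word and that of DHODH an E-box. The other 11 windows, those of RRM2 and PAICS among them, hold neither. The PAICS window used (chr4:56410257-56410556, plus strand) lies downstream of the start of its neighbour PPAT. The PPAT window (chr4:56435566-56435865, minus strand) holds an E-box. Other PAICS starts, which may lie nearer to that E-box, were not searched. Windows at other starts of these genes could differ. These matches are descriptions of letters and not of bound sites.

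The 250 bases before the annotated start used are shown for 4 members, 5′ to 3′ on the strand of the gene, with the matches in capitals. TYMS (chr18:657403-657652, plus strand) and DHODH (chr16:72008494-72008743, plus strand) are the members at least 1.5-fold higher that have a match. DCTPP1 (chr16:30429801-30430050, minus strand) is lower in 1CT-A and holds the same E-box letters as DHODH. The DCTPP1 stretch appears to include the first coding exon of the gene, so the start used and the E-box may lie inside the gene. MTHFD1L (chr6:150866236-150866485, plus strand) is the one with 2 kinds of match.
TYMS: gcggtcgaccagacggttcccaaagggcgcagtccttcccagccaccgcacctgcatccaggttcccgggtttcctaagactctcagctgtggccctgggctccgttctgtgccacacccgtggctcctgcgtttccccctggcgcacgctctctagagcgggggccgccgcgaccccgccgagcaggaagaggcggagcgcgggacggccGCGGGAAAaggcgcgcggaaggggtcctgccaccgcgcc
DHODH: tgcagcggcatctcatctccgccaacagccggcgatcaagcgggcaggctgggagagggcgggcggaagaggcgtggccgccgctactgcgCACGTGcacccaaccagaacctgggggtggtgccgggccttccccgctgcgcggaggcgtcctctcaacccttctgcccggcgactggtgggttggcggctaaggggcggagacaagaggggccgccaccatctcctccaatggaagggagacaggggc
DCTPP1: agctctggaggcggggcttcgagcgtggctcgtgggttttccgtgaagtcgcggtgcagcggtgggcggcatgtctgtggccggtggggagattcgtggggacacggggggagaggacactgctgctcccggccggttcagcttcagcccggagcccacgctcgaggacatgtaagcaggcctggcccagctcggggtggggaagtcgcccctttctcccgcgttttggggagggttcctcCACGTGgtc
MTHFD1L: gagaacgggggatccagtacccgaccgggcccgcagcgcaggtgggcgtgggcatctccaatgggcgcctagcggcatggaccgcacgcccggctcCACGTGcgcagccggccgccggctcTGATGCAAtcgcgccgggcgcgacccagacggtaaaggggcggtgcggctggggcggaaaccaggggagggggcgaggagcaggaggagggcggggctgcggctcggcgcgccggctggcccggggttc

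The enzymes of thymidylate and deoxynucleotide supply include the members with the largest rises, DUT and RRM2, ahead of PAICS of the purine route. Of 8 genes, 5 are higher in 1CT-A by 1.67- to 1.96-fold, 1 is lower and 2 are not called. RRM1, the large subunit of ribonucleotide reductase, is counted at 331, 406 and 367 CPM in the 1CT libraries and 610.0, 611 and 669 CPM in the 1CT-A libraries (log2 fold change 0.74, standard error 0.08, adjusted p = 6.8e-06). RRM2, its small subunit, which is known to be made in S phase, is counted at 142, 144 and 144 CPM in the 1CT libraries and 275, 275 and 266 CPM in the 1CT-A libraries (log2 fold change 0.89, standard error 0.07, adjusted p = 2.3e-07). For both subunits every 1CT-A library lies well above every 1CT library, and the SD of RRM2 is 1.33 CPM in 1CT and 4.87 CPM in 1CT-A. The log2 ratio of RRM1 to RRM2 within a library overlaps between the cell lines.

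TYMS, the thymidylate synthase, is counted at 232, 243 and 217 CPM in the 1CT libraries and 438, 416 and 427 CPM in the 1CT-A libraries (log2 fold change 0.85, standard error 0.07, adjusted p = 4.3e-07). Its last exon is overlapped by the gene ENOSF1 on the opposite strand, and ENOSF1 rises from 24.9 ± 2.35 to 51.7 ± 7.64 CPM (SD, n = 3; log2 fold change 1.02). Because the strand setting of the counting is not given in the sources used here, reads of TYMS and ENOSF1 are uncertain in the shared part. DTYMK, the thymidylate kinase of the next step, is counted at 68.0, 71.8 and 73.0 CPM in the 1CT libraries and 118, 131 and 123 CPM in the 1CT-A libraries (log2 fold change 0.76, standard error 0.08, adjusted p = 3.3e-06). DUT hydrolyses dUTP and so supplies the substrate of thymidylate synthase while it keeps uracil out of DNA, and it is counted at 73.3, 81.7 and 62.0 CPM in the 1CT libraries and 146, 149.7 and 140.5 CPM in the 1CT-A libraries (log2 fold change 0.97, standard error 0.09, adjusted p = 2.1e-06). The TYMS, DTYMK and DUT values do not overlap between the cell lines. TK1, the cytosolic thymidine kinase of the salvage route, is counted at 68.6, 75.0 and 79.9 CPM in the 1CT libraries and 88.4, 82.8 and 88.0 CPM in the 1CT-A libraries and is not called, though the ranges do not overlap (log2 fold change 0.18, standard error 0.08, adjusted p = 0.0977). It is called without 1CT replicate 3 (log2 fold change 0.24, adjusted p = 0.0145).

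DCTPP1, which hydrolyses dCTP and modified cytidine nucleotides, goes the other way. It is counted at 46.5, 39.7 and 40.6 CPM in the 1CT libraries and 30.9, 33.8 and 29.2 CPM in the 1CT-A libraries (log2 fold change -0.47, standard error 0.10, adjusted p = 0.00129). Every 1CT-A library of DCTPP1 lies below every 1CT library, and with any library left out its log2 fold change stays between -0.52 and -0.40 and is called. SAMHD1, which breaks deoxynucleoside triphosphates down, has 10 to 27 reads in a library, at 1.18, 1.57 and 1.67 CPM in the 1CT libraries and 1.97, 1.75 and 2.14 CPM in the 1CT-A libraries. It is not called (log2 fold change 0.37, standard error 0.30, adjusted p = 0.325), though every 1CT-A library lies above every 1CT library. Whether a difference of this size can be detected at these low counts was not tested.

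**Figure D3:**
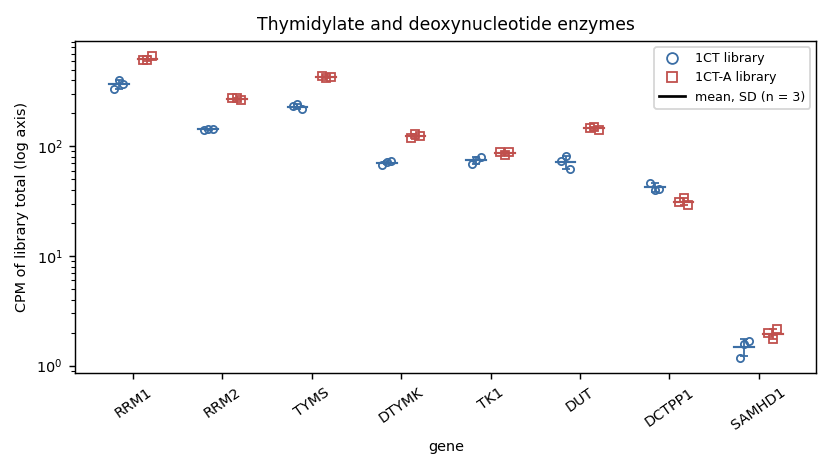
CPM of the library total (log axis) of the 8 thymidylate and deoxynucleotide genes, with 1 point per library and the mean and SD of 3 libraries of 1CT (circles) and 1CT-A (squares). The squares lie above the circles for RRM1, RRM2, TYMS, DTYMK and DUT, narrowly above for TK1 and SAMHD1, and below for DCTPP1.

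In the pyrimidine pathway 6 of 8 genes are higher in 1CT-A, by 1.24- to 1.75-fold, and 0 are lower. CAD, the multi-enzyme protein of the first steps, is higher by 0.31 on the log2 scale. DHODH, the mitochondrial enzyme of the next step, is counted at 6.15, 7.24 and 6.03 CPM in the 1CT libraries and 10.1, 11.8 and 10.1 CPM in the 1CT-A libraries (log2 fold change 0.68, standard error 0.16, adjusted p = 0.0028), and its values do not overlap. UMPS, which completes UMP, is higher by 0.58. The difference is smaller at CAD than at DHODH and UMPS, and this contrast between genes was not tested. UCK2, a uridine and cytidine kinase of the salvage route, has the largest difference of the group and is counted at 36.1, 38.8 and 32.5 CPM in the 1CT libraries and 59.1, 67.1 and 66.7 CPM in the 1CT-A libraries (log2 fold change 0.81, standard error 0.09, adjusted p = 1.1e-05). For UCK2 the 1CT-A libraries are all far above the 1CT libraries.

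CTPS1 and CTPS2 turn UTP into CTP. CTPS1 is called higher, from 58.4 ± 5.19 to 78.1 ± 4.17 CPM (SD, n = 3; log2 fold change 0.38). CTPS2 is counted at 5.44, 5.43 and 7.32 CPM in the 1CT libraries and 7.89, 6.23 and 4.76 CPM in the 1CT-A libraries and is not called (log2 fold change 0.01, standard error 0.22, adjusted p = 0.968), and its highest and lowest values are both in 1CT-A. CMPK1, which phosphorylates UMP and CMP, is counted at 82.0, 76.5 and 48.7 CPM in the 1CT libraries and 76.0, 92.1 and 80.3 CPM in the 1CT-A libraries and is not called (log2 fold change 0.22, standard error 0.15, adjusted p = 0.224). In 1CT replicate 3 CMPK1 is well below the other libraries of both cell lines. NME1, a nucleoside diphosphate kinase, is called higher by 0.31 on the log2 scale. The files also hold the read-through entry NME1-NME2 with 4634 to 6958 reads in a library, which is not called (log2 fold change -0.07, adjusted p = 0.48). NME2 itself has 5 to 17 reads in a library, and no other named gene overlaps the last exon of NME1. How reads are divided between these entries is not given, so the values of NME1 and NME2 are uncertain.

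Purine synthesis runs from ribose phosphate to IMP and then splits to AMP and GMP. Of the 12 genes 9 are higher in 1CT-A, by 1.16- to 1.81-fold, and 0 are lower, and in 11 every 1CT-A library lies above every 1CT library. PRPS2, a synthetase of the activated ribose PRPP, is higher by 0.50 on the log2 scale, while its paralog PRPS1 is counted at 78.4, 80.0 and 77.8 CPM in the 1CT libraries and 91.7, 93.2 and 89.0 CPM in the 1CT-A libraries and is not called (log2 fold change 0.17, standard error 0.07, adjusted p = 0.0596). Without 1CT replicate 3 PRPS1 is called (log2 fold change 0.18, adjusted p = 0.0426). PPAT, which commits PRPP to purines, is higher by 0.57. GART, a protein with 3 of the pathway's activities, is counted at 41.4, 39.0 and 34.7 CPM in the 1CT libraries and 61.1, 58.6 and 58.7 CPM in the 1CT-A libraries (log2 fold change 0.59, standard error 0.09, adjusted p = 9.8e-05).

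The next enzymes hold the largest differences of the route. PFAS, which adds a glutamine nitrogen, is counted at 8.52, 11.2 and 12.6 CPM in the 1CT libraries and 20.5, 16.6 and 17.9 CPM in the 1CT-A libraries (log2 fold change 0.73, standard error 0.16, adjusted p = 0.00182). PAICS, which joins the carboxylase and SAICAR synthetase activities, is counted at 73.1, 75.7 and 55.5 CPM in the 1CT libraries and 125, 134 and 121 CPM in the 1CT-A libraries (log2 fold change 0.85, standard error 0.10, adjusted p = 1.6e-05). For PFAS and PAICS the ranges do not overlap, though 1CT replicate 1 of PFAS and 1CT replicate 3 of PAICS are lower than the other 1CT libraries. The late steps have smaller differences, a contrast between genes that was not tested. ADSL, which acts in the ring and again in AMP synthesis, is called higher by 0.21 on the log2 scale with an adjusted p of 0.0448. That call is lost without 1CT replicate 1 (adjusted p = 0.0817), 1CT replicate 2 (0.153), 1CT-A replicate 1 (0.1145) or 1CT-A replicate 3 (0.158). ATIC, which makes IMP, is counted at 65.0, 64.0 and 62.4 CPM in the 1CT libraries and 77.1, 70.2 and 73.4 CPM in the 1CT-A libraries and is not called (log2 fold change 0.17, standard error 0.08, adjusted p = 0.0911), although its ranges do not overlap.

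Both branches from IMP hold genes that are called. ADSS, the first step to AMP, is higher by 0.46 on the log2 scale. IMPDH2, the main IMP dehydrogenase of proliferating cells and the first step to GMP, is higher by 0.31, and GMPS, the second step, by 0.48. IMPDH1, the paralog of IMPDH2, is counted at 34.2, 29.5 and 27.1 CPM in the 1CT libraries and 34.0, 30.4 and 33.9 CPM in the 1CT-A libraries, overlaps between the cell lines and is not called (log2 fold change 0.07, standard error 0.11, adjusted p = 0.578). HPRT1, which salvages hypoxanthine and guanine, is counted at 20.4, 19.4 and 16.9 CPM in the 1CT libraries and 28.4, 32.3 and 30.4 CPM in the 1CT-A libraries (log2 fold change 0.64, standard error 0.11, adjusted p = 2.4e-04). APRT, which salvages adenine, is counted at 61.5, 62.5 and 75.8 CPM in the 1CT libraries and 69.3, 69.4 and 72.3 CPM in the 1CT-A libraries and is not called (log2 fold change 0.04, standard error 0.09, adjusted p = 0.743). The 1CT-A values of APRT lie within the range of 1CT, where replicate 3 is the highest.

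**Figure D4:**
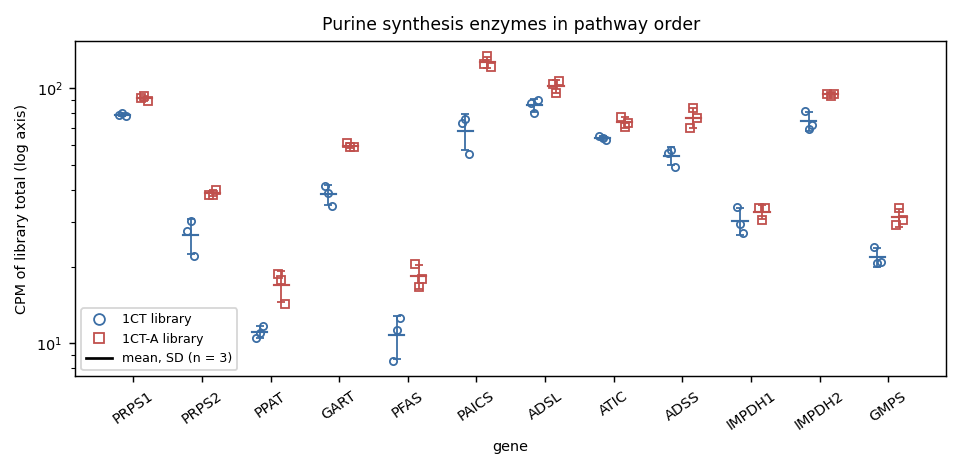
CPM of the library total (log axis) of the 12 purine synthesis genes in pathway order, with 1 point per library and the mean and SD of 3 libraries of 1CT (circles) and 1CT-A (squares). The gap is widest at PAICS and PFAS, and IMPDH1 is the gene whose libraries overlap.

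Folate one-carbon metabolism differs in each of its 6 members. SHMT1, the cytosolic serine hydroxymethyltransferase, is counted at 12.5, 14.2 and 10.4 CPM in the 1CT libraries and 19.1, 24.0 and 24.8 CPM in the 1CT-A libraries (log2 fold change 0.83, standard error 0.14, adjusted p = 3.6e-04). Its mitochondrial counterpart SHMT2 is higher by 0.33 on the log2 scale. MTHFD2, the mitochondrial methylene-tetrahydrofolate dehydrogenase, is counted at 59.4, 63.6 and 44.8 CPM in the 1CT libraries and 82.5, 92.1 and 92.2 CPM in the 1CT-A libraries (log2 fold change 0.63, standard error 0.11, adjusted p = 3.7e-04), and in 1CT replicate 3 it is the lowest. MTHFD1L, which releases mitochondrial formate, is higher by 0.51, and MTHFD1, which takes formate up into the cytosolic pool, by 0.54. Genes of both compartments are thus among those called higher.

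ALDH1L2 is the exception in this group. It oxidises mitochondrial formyl-tetrahydrofolate to carbon dioxide instead of releasing formate, and it is counted at 11.6, 10.0 and 12.7 CPM in the 1CT libraries and 7.71, 9.83 and 8.49 CPM in the 1CT-A libraries (log2 fold change -0.44, standard error 0.16, adjusted p = 0.0314). Every 1CT-A library of ALDH1L2 is below every 1CT library, and the nearest are 9.83 and 10.0 CPM. The call is lost without 1CT replicate 1 (adjusted p = 0.0714), 1CT replicate 3 (0.0956), 1CT-A replicate 1 (0.108) or 1CT-A replicate 3 (0.0915), while the log2 fold change stays between -0.52 and -0.34.

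In the methionine cycle 3 of 4 genes are higher and 0 are lower. MAT2A, which makes the methyl donor S-adenosylmethionine, is higher by 0.53 on the log2 scale, from 208 ± 7.78 to 309 ± 12.5 CPM (SD, n = 3). MTR, the methionine synthase that uses folate, is higher by 0.29 (adjusted p = 0.045), and MTRR, which reactivates it, by 0.35 (adjusted p = 0.0279). The call of MTR is lost without 1CT replicate 1 (adjusted p = 0.174), 1CT replicate 2 (0.0608), 1CT-A replicate 1 (0.173) or 1CT-A replicate 3 (0.0971), and that of MTRR without 1CT replicate 3 (0.0597), 1CT-A replicate 1 (0.0884) or 1CT-A replicate 3 (0.0726). AHCY, which clears S-adenosylhomocysteine, is counted at 136, 128 and 121 CPM in the 1CT libraries and 122, 121 and 129 CPM in the 1CT-A libraries and is not called (log2 fold change -0.09, standard error 0.07, adjusted p = 0.334). The cell lines overlap at AHCY.

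Last exons of further members are overlapped on the opposite strand by genes with enough counts to be tested. They are SMCR8 at SHMT1 (log2 fold change 0.51, called higher), NDUFA4L2 at SHMT2 (0.21, not called), SLC4A5 at MTHFD2 (0.27, not called) and GGCX at MAT2A (0.46, called higher). Without a stated strand setting these pairs are uncertain in the shared part.

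Paralogs and partner enzymes are compared within each library as the log2 ratio of their CPM. In 7 pairs the difference of this ratio between the cell lines does not pass a two-sided exact permutation test, which cannot go below p = 0.1 with 3 libraries against 3. For PRPS1 over PRPS2 the log2 ratio is 1.49, 1.40 and 1.79 in 1CT and 1.26, 1.28 and 1.15 in 1CT-A, a difference of -0.33 with no overlap (exact permutation p = 0.1, adjusted p = 0.28). For IMPDH1 over IMPDH2 it is -1.24, -1.22 and -1.39 in 1CT and -1.48, -1.60 and -1.48 in 1CT-A, a difference of -0.24 with no overlap (exact permutation p = 0.1, adjusted p = 0.28). In both pairs the paralog that is called carries the larger rise. The differences of the other 5 ratios, with overlap, are 0.38 for CTPS1 over CTPS2, 0.47 for SHMT1 over SHMT2, -0.15 for RRM1 over RRM2, 0.02 for MTHFD1 over MTHFD1L and 0.13 for MTHFD2 over MTHFD1L.

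Further genes of these pathways are read from 4 lists of 86 genes in all, of which 71 have enough counts to be tested. In 1CT-A 28 of the tested genes (39.4%) are called higher and 18 (25.4%) lower, with a median log2 fold change of 0.18. Of the tested genes of serine synthesis and the methionine and polyamine branches, 10 of 15 are higher and 1 is lower, with a median of 0.36. In this list APIP, an enzyme of methionine salvage, has the largest difference and is counted at 8.28, 5.80 and 2.44 CPM in the 1CT libraries and 14.4, 16.3 and 15.6 CPM in the 1CT-A libraries (log2 fold change 1.43, standard error 0.26, adjusted p = 4.6e-04). Folate uptake and conversion has 6 of 12 higher and 3 lower, with a median of 0.29.

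The lists of salvage and breakdown hold about as many lower as higher genes, or more. Nucleoside and nucleotide salvage, kinases and uptake has 8 of 25 higher and 7 lower, with a median of -0.0097. Nucleotide breakdown and pool cleaning has 4 of 19 higher and 7 lower, with a median of -0.21. NT5E, the surface enzyme that turns AMP into adenosine, is counted at 257, 257 and 210.4 CPM in the 1CT libraries and 106, 109.5 and 105 CPM in the 1CT-A libraries (log2 fold change -1.22, standard error 0.08, adjusted p = 1.1e-07), and every 1CT-A library lies far below every 1CT library. The share of members that is higher, 72.5%, is set beside 32.0% and 21.1% in these lists and 25.0% over all genes tested. It is 66.7% for serine synthesis and the methionine and polyamine branches, 50% for folate uptake and conversion and 94.9% for the S phase genes. The difference between lists was not tested.

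**Figure D5:**
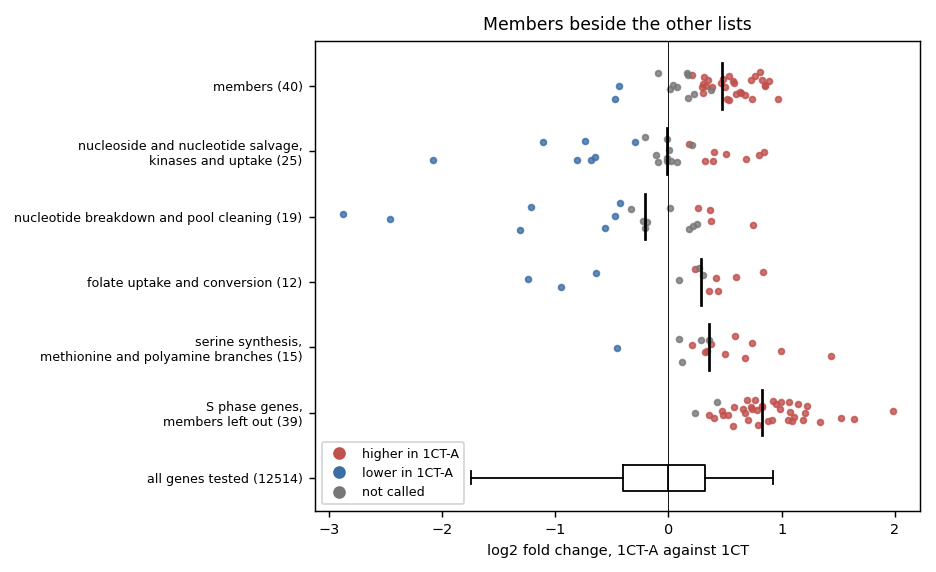
Log2 fold change, 1CT-A against 1CT, of the tested genes of each list (points, coloured by call, with the median as a vertical bar) and of all genes tested (box from the lower to the upper quartile, whiskers to percentiles 5 and 95). The medians are 0.47 for the members, 0.83 for the S phase genes and -0.21 for nucleotide breakdown.

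A few listed genes outside the rule for naming were chosen after their values were seen. SLC19A1, the reduced folate carrier, is higher by 0.83 (14.5 ± 1.01 to 26.6 ± 1.498 CPM, SD, n = 3, adjusted p = 3.8e-05). PHGDH and PSAT1, the first steps from glycolysis to serine, are higher by 0.59 and 1.00, and PSPH, the last step, is not called (log2 fold change 0.09, adjusted p = 0.61).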

How the data were processed

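RNA of 6 libraries is sequenced from the 3′ end (QuantSeq, 500 ng of total RNA). The labels name Trizol for extraction and the methods of the study an RNA-spin kit. The authors deposited 1 table of raw counts per library with 25737 entries. The submitters' processing notes name Bowtie2, edgeR and hg19, and the gene annotation, the strand setting and any molecular identifier are not given in the sources used here. Reads at the 3′ end do not scale with transcript length, and a gene with a shared 3′ end is uncertain.

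Entries of a repeated symbol (286 symbols) are summed. Genes are filtered with filterByExpr (minimum count 10), scaled by TMM and tested with edgeR 4.0.16 in R 4.3.3 (quasi-likelihood, 3 libraries against 3, Benjamini-Hochberg adjustment over 12514 genes, adjusted p under 0.05). CPM values are of the library total. The 40 members, the lists and the motifs were chosen with earlier results of these data known. The S phase list is from Seurat 5.3.0. Values in every library are given for members called and at least 1.5-fold different, called lower or not called, and, in the other lists, for genes called with a log2 fold change of at least 1 in size and a mean of at least 10 CPM. Pairs of members are compared on log2(CPM + 0.5). The steps were tested on simulated data. Gene overlaps are computed from GENCODE exon coordinates, whose build is not that of the counts, and genes are matched to the counts by name.

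Libraries with the same replicate number do not deviate together (correlations -0.16, 0.22 and -0.14 over 8224 genes with at least 10 CPM), so the numbers are not used to pair libraries. Replicates differ by more than sampling noise (chi-square per degree of freedom 3.11 to 9.00). The highest values, 7.54 and 9.00, are those of 1CT replicate 3 against the other 1CT libraries, and the rest are 3.11 to 4.56. Alternatives are other normalizations, low-count filters, a threshold of 0.01, DESeq2 1.42.0, limma-voom (limma 3.58.1), a replicate block and each library left out. Some genes of the folate list are not reported here by name.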

Additional observations from a re-analysis of the deposited data

How the results depend on the processing

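Of 600 differences of single members under other settings, 557 keep their direction and their side of the threshold. Of the rest, 28 lose a call, 8 gain a call and 7 change sign, and these changes fall on 10 members. The 600 include the threshold of 0.01, which keeps the main fit and so cannot change a sign. They also include the use of the first entry of repeated symbols, which leaves the members' own counts unchanged. The members called higher number 26 to 32 under the other settings and 26 to 30 with a library left out. The members called lower number 1 without a low-count filter, with DESeq2 and at an adjusted p under 0.01, and 1 to 2 with a library left out, and DCTPP1 keeps its call in each of these. The median log2 fold change of the members is 0.51 with library size only, 0.52 without a filter and 0.44 to 0.49 with a library left out. With the replicate number as a block (replicate block), 27 members are called higher and 2 lower, and ADSL (adjusted p = 0.0552) and MTR (0.0659) lose their calls. The same members lose theirs with at least 10 counts in every library (0.0604 and 0.0574), and DESeq2 loses ADSL, MTR, MTRR and ALDH1L2. Without a filter ALDH1L2 is lost (0.0525) and TK1, CMPK1 and PRPS1 are gained, and with library size only TK1, PRPS1 and ATIC are gained. CTPS2, which is not called, has a log2 fold change of -0.0042 with at least 10 counts in every library, -0.012 with limma-voom and -0.18 to 0.19 with a library left out. APRT, not called either, runs from -0.017 to 0.16. The log2 ratio difference of MTHFD1 to MTHFD1L is -0.015 with a pseudocount of 5 CPM and -0.031 to 0.066 with a library left out, and that of MTHFD2 to MTHFD1L is -0.037 to 0.26. The cause was not tested.

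Limits are the 3 libraries per cell line, for which an exact permutation test cannot go below p = 0.1, the counts of 10 to 27 reads of SAMHD1, and the depth, 1.43 times as high in 1CT-A as in 1CT.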

Other observations

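Ratios between members with opposite or unequal differences are given as values, chosen after the data were seen and with no test. The ratio of TYMS to TK1 within a library is 3.37, 3.25 and 2.72 in 1CT and 4.95, 5.02 and 4.85 in 1CT-A. That of DUT to DCTPP1 is 1.72 ± 0.29 in 1CT and 4.66 ± 0.20 in 1CT-A (SD, n = 3), and that of PAICS to ATIC is 1.07 ± 0.16 and 1.72 ± 0.16. The ratio of MTHFD2 to ALDH1L2 is 5.12, 6.35 and 3.53 in 1CT and 10.7, 9.37 and 10.9 in 1CT-A. RRM2B, the small subunit of ribonucleotide reductase that p53 induces, is no member and is lower in 1CT-A by the count test, and the ratio of RRM2 to RRM2B is 1.59, 1.90 and 2.10 in 1CT and 6.21, 5.76 and 5.94 in 1CT-A. In each of these ratios every 1CT-A library lies above every 1CT library. The CPM of different genes are set against each other here without a length correction, since the reads come from the 3′ end, so the ratios compare cell lines and not amounts of enzyme.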
